A study of Sus scrofa with 4 samples.

Results

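The NF-kB genes described here are 10 transcripts measured in primary aortic valve interstitial cells from the pig (Sus scrofa). They are the 5 subunits of the transcription factor, NFKB1, NFKB2, REL, RELA and RELB, and 5 genes that restrain or accompany it, NFKBIA, NFKBIE, NFKBIZ, TNFAIP3 and BIRC3. They were chosen by gene symbol, and all 10 were found, once each, among the 14804 gene rows of the deposited comparison. All 10 also lay among the 13943 measured genes, those given an adjusted p-value by the authors. Valve interstitial cells are the fibroblast-like cells that keep up the valve matrix, and the series asks how nitric oxide (NO) acts on their calcification. The control cells were cultured for 5 days without an NO source, and the NO donor cells were cultured for 5 days with detaNONOate, a compound that releases NO, at 150 µM. Both were primary cultures of aortic valve, and the labels give 1 droplet single-cell library for each. Libraries of cells taken off the donor after 3 days and of cells given S-nitrosoglutathione were not analysed here. The labels do not say how many animals gave the cells.

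The NF-kB proteins are a family of transcription factors that bind DNA as dimers through a shared Rel homology region. In resting cells the inhibitors called I kappa B hold these dimers in the cytoplasm. Receptors for tumour necrosis factor, interleukin-1 or bacterial products activate the I kappa B kinase (IKK), which marks the inhibitors for destruction and frees the dimers to enter the nucleus. NF-kB then induces inflammatory genes together with several of its own subunits and inhibitors, so that the inhibitor transcripts form a feedback loop and are often read as a sign of recent activity. The data here are transcript counts, and neither the location nor the activity of the proteins was measured.

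The counts were given per column, with no cell by cell values. More cells with a transcript and more of it per cell therefore cannot be told apart. Each library was given as 3 columns, of 7064703 to 7151367 counts for the NO donor and 6486628 to 8067661 for the control, and no source used here gives the origin of the columns, which were treated as subsamples of a single library. Differences therefore have no check between cultures, and the treatment was not tested. Values are normalized counts, that is, counts divided by the authors' size factor for each column. A log2 ratio is the NO donor level over the control level from the summed columns, with an exact 95% interval that covers counting error only. Genes with a log2 ratio of at least 1 were called higher, and those with −1 or less lower.

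The genes that restrain or accompany NF-kB lay on both sides of the control level. NFKBIA and NFKBIE, which encode I kappa B proteins of the cytoplasm, and BIRC3, a ubiquitin ligase, were 3.11 to 6.51 times as high in the NO donor library as in the control. NFKBIZ, a nuclear protein of the I kappa B family, was 3.58 times lower, and TNFAIP3 had a log2 ratio of −0.85. Among the subunits, NFKB2 was past the size rule on the higher side, NFKB1 and RELB lay above the control by less than that, REL lay slightly below it, and RELA had too few counts to compare. In all, 4 of the 10 members were called higher, where 14.5% of the measured genes were, and 1 of the 10 was called lower, where 20.2% were. The median log2 ratio of the 10 was 0.74, beside 0.00 over the measured genes. When the libraries were scaled to their total counts instead, every log2 ratio became larger by 0.60, the median of the measured genes included. At the authors' scaling and a smaller size rule of 0.5, 6 members were higher, where 29.5% of the measured genes were, and 2 were lower, where 32% were. At total count scaling and the rule of 1, 6 members were higher, where 33.2% of the measured genes were, and 1 was lower, where 11.9% were.

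**Figure D1:**
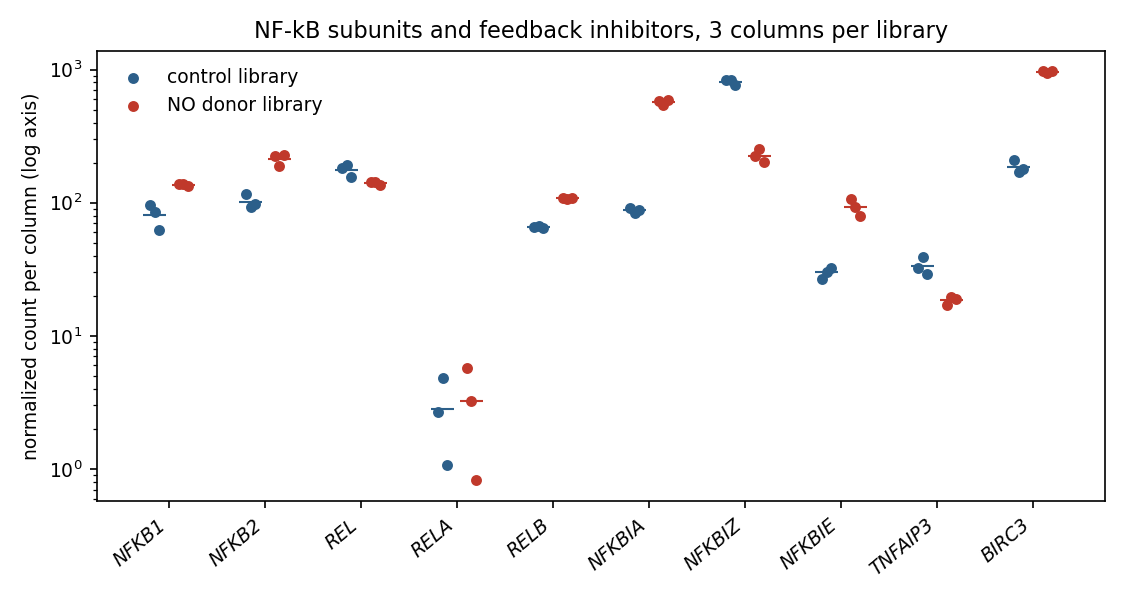
Normalized count of each member (log axis) in the 3 columns of the control library (blue) and of the NO donor library (red); horizontal lines mark the level from the summed columns. The columns of the libraries stand apart for 9 of the 10 genes and overlap for RELA. The NO donor columns are all higher in 6, where 36.7% of the measured genes are, and all lower in 3, where 36.3% are.

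The sequence in front of these genes is shown because several of them are known to be induced by NF-kB itself through kappa B sites, the DNA element that its dimers bind. Windows ran from 250 bases before to 50 bases after the annotated gene start, by RefSeq's Sscrofa11.1 annotation. The submitters' processing notes name the same build. The kappa B consensus was searched on both strands, and a window was counted once even where matches overlapped. It was found in 3 of the 9 member windows used, that of TNFAIP3 being left out, and in 7.04% of the 19556 windows of protein-coding genes on chromosomes. A narrower form of the consensus, which among these 9 matched only GGGAATTTCC in NFKBIA, was found in 0.496% of all windows. The 3 windows with a match are printed 5′ to 3′ on the strand of the gene, with the matches in capitals. For NFKBIA, whose annotated model begins at the start codon with 0 bases of 5′ untranslated sequence, the first 120 bases are given.
NFKBIA, chr7:64507869-64507988, plus strand: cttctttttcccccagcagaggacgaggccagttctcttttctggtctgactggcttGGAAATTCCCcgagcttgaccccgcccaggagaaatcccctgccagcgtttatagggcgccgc
NFKB2, chr14:113406162-113406461, plus strand: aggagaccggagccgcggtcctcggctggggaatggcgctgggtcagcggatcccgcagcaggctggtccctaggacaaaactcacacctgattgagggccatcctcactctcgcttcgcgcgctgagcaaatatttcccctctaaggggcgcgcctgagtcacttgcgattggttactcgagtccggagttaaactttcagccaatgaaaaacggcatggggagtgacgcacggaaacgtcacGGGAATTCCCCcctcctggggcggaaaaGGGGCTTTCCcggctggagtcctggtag
RELB, chr6:51444420-51444719, plus strand: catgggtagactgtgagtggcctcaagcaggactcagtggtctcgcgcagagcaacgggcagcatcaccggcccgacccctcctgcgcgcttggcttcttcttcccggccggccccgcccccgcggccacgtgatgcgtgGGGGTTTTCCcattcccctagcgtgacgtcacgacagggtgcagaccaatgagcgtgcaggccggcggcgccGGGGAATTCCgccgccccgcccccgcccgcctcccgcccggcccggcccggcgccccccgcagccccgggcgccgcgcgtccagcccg

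The match in NFKBIA reads GGGAATTTCC on the strand opposite to the gene and begins 193 bases before the annotated start. In NFKB2 the match GGGAATTCCC begins 6 bases before the start and reads the same on both strands. GGGGAATTCC, on the strand opposite to the gene, overlaps it in the same capitals. GGGGCTTTCC begins 22 bases after the start, on the strand of the gene. RELB has GGGGTTTTCC 110 bases and GGGGAATTCC 38 bases before its start, both on the strand of the gene. Among the genes with a match, NFKBIA and NFKB2 were called higher, and RELB, at a log2 ratio of 0.72, was not called. Of the 6 genes without a match, BIRC3 and NFKBIE were called higher and NFKBIZ lower. NFKB1, at 0.77, REL and RELA were not called. Windows without a match were thus found on both sides of the control level. A match is a string of letters and not a measured binding site. The start of the model matters to such a search. NFKB1, RELA and NFKBIE, like NFKBIA, have 0 bases of annotated 5′ untranslated sequence. With the starts of all annotated transcripts REL gained a match, which gave 4 of 9 members beside 11.4% of all genes. The narrower form was then found in 3 of 9 members, beside 0.936% of all genes.

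NFKBIA encodes I kappa B alpha, the inhibitor that is destroyed and remade fastest and that carries NF-kB out of the nucleus. The gene lies on chromosome 7 from 64508119 to 64510754, with 6 exons. Its normalized counts were 578, 546 and 593 in the NO donor columns and 91.5, 83.8 and 88.6 in the control columns. All 3 NO donor columns lay far above all 3 control columns, and the columns of a library lay close together. From a control level of 87.9 to an NO donor level of 572, the difference was 6.51-fold (95% interval 5.67 to 7.52). Its log2 ratio of 2.70 stood at the 97.7th percentile of the measured genes, the highest place among the 10.

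NFKBIE encodes I kappa B epsilon, another cytoplasmic inhibitor, and lies on chromosome 7 from 39255078 to 39266085. It had normalized counts of 107, 93.3 and 79.7 in the NO donor columns and 26.9, 30.4 and 32.4 in the control columns. The libraries did not overlap, although the NO donor columns scattered 2.52 times as much as counting alone gives on average. The ratio was 3.11-fold (2.42 to 4.05), based on 75 control counts and 344 NO donor counts. NFKBIB, the beta inhibitor, which belongs to the wider pathway and not to the 10, had a log2 ratio of 0.90, with normalized counts of 928, 926 and 907 in the NO donor columns and 506, 492 and 481 in the control columns. The inhibitors of the cytoplasm that were measured thus lay above the control in every pairing of columns, NFKBIB short of the size rule.

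NFKBIZ encodes I kappa B zeta, which stays in the nucleus and acts there with p50 subunits as a coactivator of secondary response genes such as IL6. The gene lies on chromosome 13 from 157261419 to 157273119. Its normalized counts were 222, 254 and 201 in the NO donor columns and 834, 835 and 764 in the control columns. Every NO donor column lay below every control column, the reverse of NFKBIA and NFKBIE. The level was 226 against 808, a 3.58-fold difference (3.30 to 3.89), and the log2 ratio of −1.84 stood at the 9.88th percentile of the measured genes. Its NO donor columns scattered 3.91 times as much as counting alone gives on average, the widest scatter among the 10 in that library. The interval does not cover any scatter beyond counting. With total count scaling the log2 ratio was −1.24, still past the size rule. IL6 itself, a known target of this protein in mice and chosen after its values were seen, lay in the other direction, 5.44-fold (5.25 to 5.63) higher with the NO donor. NFKBID, which encodes a further nuclear I kappa B protein, had only 72 and 40 counts and a log2 ratio of 0.29 (−0.29 to 0.88).

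**Figure D2:**
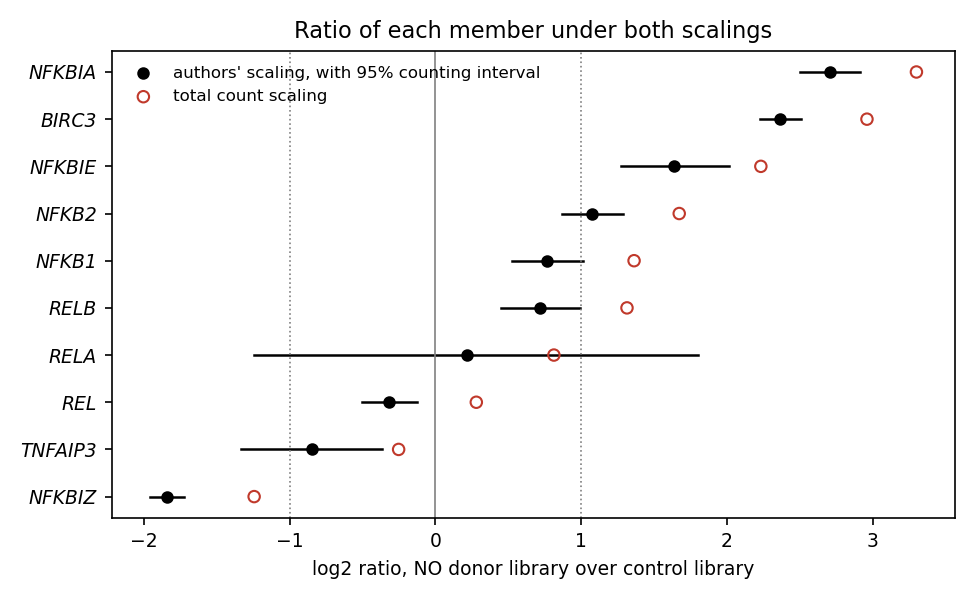
Log2 ratio of the NO donor library over the control library for each member, ordered by ratio. Filled points use the authors' scaling with the 95% counting interval, open red points the total count scaling, and dotted lines mark the size rule; NFKBIA is highest at 2.70 and NFKBIZ lowest at −1.84, and REL lies below 0 at the authors' scaling but above 0 at total count scaling.

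BIRC3 encodes cIAP2, a ubiquitin ligase that joins the receptor complexes of tumour necrosis factor and is itself a well known NF-kB target. It lies on chromosome 9 from 33003570 to 33020252. Its normalized counts were 972, 937 and 967 in the NO donor columns and 210, 171 and 180 in the control columns. The libraries were widely apart, 5.15-fold (4.67 to 5.68), from a level of 186 to 959. The log2 ratio of 2.36 stood at the 96.9th percentile. The counting intervals of NFKBIA and BIRC3 just overlapped, from 2.50 to 2.91 and from 2.22 to 2.51, and both lay above that of NFKBIE, from 1.27 to 2.02.

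TNFAIP3 encodes A20, the ubiquitin-editing enzyme that shuts down signalling from these receptors and is likewise known as an NF-kB target. It lies on chromosome 1 from 26474158 to 26489771. Counts were few, with 68 under the NO donor and 83 without it. The normalized counts were 17.1, 19.5 and 18.9 in the NO donor columns and 32.3, 38.9 and 29.2 in the control columns. The NO donor columns lay below the control columns without overlap, and the log2 ratio was −0.85 (−1.33 to −0.37), short of the size rule. With total count scaling it was −0.25. Both BIRC3 and TNFAIP3 act on ubiquitin chains at the receptors, and their intervals lay on opposite sides of 0 at the authors' scaling.

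At the authors' scaling the log2 ratios of the subunits were smaller in size than those of NFKBIA, BIRC3, NFKBIZ and NFKBIE. The intervals of NFKB2 and NFKBIE overlapped there, and RELA had too few counts to compare. At total count scaling NFKB2, at 1.67, NFKB1 and RELB lay further from the control than NFKBIZ, at −1.24. NFKB2 encodes p100, which holds RELB in the cytoplasm and is processed to the p52 subunit of the non-canonical pathway. It lies on chromosome 14 from 113406412 to 113414177. Its normalized counts were 225, 188 and 227 in the NO donor columns and 116, 92.3 and 97.2 in the control columns. The libraries did not overlap, and the 2.11-fold difference (1.83 to 2.44) was the only one among the subunits past the size rule, with an interval that reached below it, from 0.87 to 1.29 in log2.

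RELB, the partner of p52, lies on chromosome 6 from 51444670 to 51480350. Its normalized counts were 109, 106 and 109 in the NO donor columns and 65.9, 66.8 and 64.8 in the control columns. These columns were the tightest of the 10 genes in both libraries, and the NO donor level was 1.64 times the control level (1.37 to 1.99). NFKB1 encodes p105, the precursor of p50, and lies on chromosome 8 from 118391010 to 118478927. It had normalized counts of 138, 137 and 134 in the NO donor columns and 96.9, 85.0 and 62.7 in the control columns. All NO donor columns were higher, but the control columns scattered 3.18 times as much as counting alone gives on average. The log2 ratio over the 9 pairings of columns ran from 0.47 to 1.14 around 0.77. With total count scaling the log2 ratios of RELB and NFKB1 were 1.31 and 1.36, both past the size rule. The intervals of NFKB2, NFKB1 and RELB overlapped one another, so their order was not resolved.

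REL encodes c-Rel, the subunit best known from lymphocytes, and lies on chromosome 3 from 80861862 to 80912233. Its normalized counts were 144, 143 and 136 in the NO donor columns and 182, 192 and 156 in the control columns. The NO donor columns lay below the control columns without overlap, and the log2 ratio was −0.32 (−0.50 to −0.13). At total count scaling it was 0.28, so the side of the control on which REL lay depended on the scaling.

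RELA encodes p65, the activating subunit of the canonical pathway, which nearly all cell types contain. Only 12 NO donor counts and 7 control counts were assigned to it. The normalized counts were 5.70, 3.25 and 0.822 in the NO donor columns and 2.69, 4.86 and 1.08 in the control columns. The columns overlapped and the log2 ratio of 0.22 had an interval from −1.25 to 1.80, so a difference in RELA was not detectable at this depth. The annotated model of RELA, on chromosome 2 from 6594869 to 6602684, is marked as partial and has 0 bases of 3′ untranslated sequence. The model of NFKBIA also has 0 such bases but is not marked as partial, and NFKBIA had 2105 NO donor counts and 219 control counts. Whether the gene model set the low count of RELA was not tested.

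**Figure D3:**
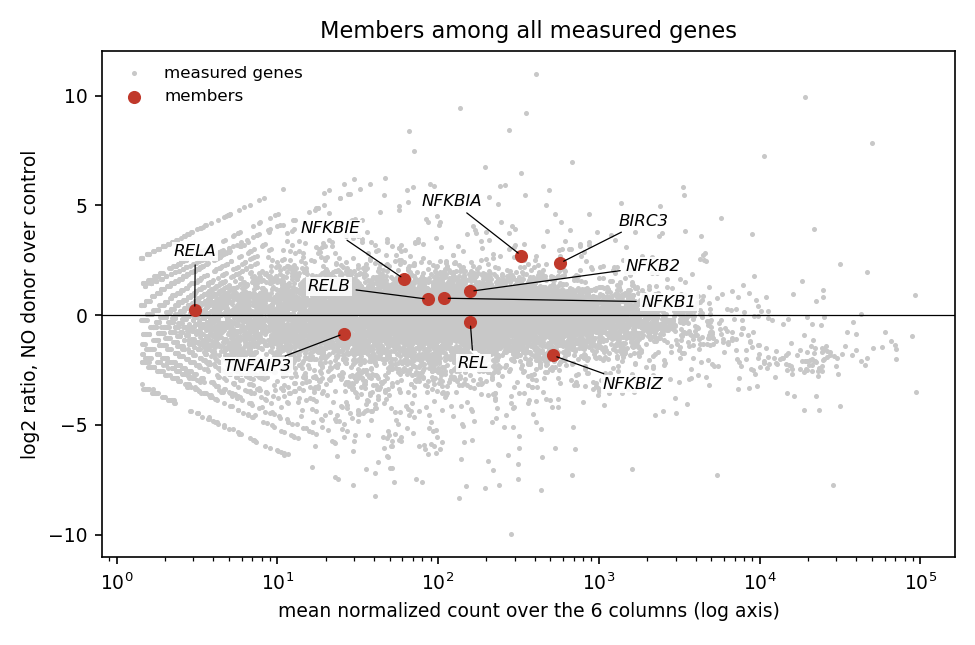
Log2 ratio of the NO donor over the control against the mean normalized count of the 6 columns (log axis) for the 13943 measured genes (grey) and the 10 members (red). NFKBIA and BIRC3 lie above and NFKBIZ lies below most measured genes, and RELA sits among the sparsest genes.

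Across the 10 members, the NO donor columns were all above the control columns in 6 genes, where 36.7% of the measured genes were, and all below in 3, where 36.3% were. In the authors' deposited table the DESeq2 adjusted p was below 0.05 for 7 members, where it was so for 51.1% of the tested genes. It was 4.89e-68 for NFKBIA, 3.03e-91 for BIRC3 and 1.84e-60 for NFKBIZ, and 0.14 for REL, 0.106 for TNFAIP3 and 0.969 for RELA. By the labels, those values in the authors' deposited table rest on the columns of 1 library per group, and so are no test of the treatment.

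Upstream of the members stand the receptor and adaptor genes. Of 26 measured genes 5 were higher and 1 was lower, beside 14.5% and 20.2% of all measured genes, with a median log2 ratio of 0.24. IL1RAP, the accessory chain of the interleukin-1 receptor, was 8.93-fold higher (6.96 to 11.6), at 236, 236 and 248 in the NO donor columns and 25.6, 31.6 and 23.8 in the control columns. TNFRSF12A, the receptor of the cytokine TWEAK, was 2.55-fold higher, the kinase IRAK1 2.25-fold and the adaptor TICAM1, which serves the receptors TLR3 and TLR4, 2.09-fold. The normalized counts of TICAM1 were 152, 206 and 151 in the NO donor columns, and without the second its log2 ratio was 0.90, short of the size rule, so that 4 receptors and adaptors were higher. The receptors TNFRSF1A and IL1R1 lay below the control, at log2 ratios of −0.47 and −0.39, and above it with total count scaling, at 0.12 and 0.21. The lower gene, TRAF5, an adaptor of the tumour necrosis factor receptor family, was 18.5-fold lower (12.9 to 27.4). TNFRSF1A, IL1R1 and TRAF5 were chosen after their values were seen.

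Of the 7 kinases that link these receptors to the inhibitors, 1 was higher and 1 was lower, close to the 14.5% and 20.2% of all measured genes, with a median of 0.34. The IKK subunits CHUK, IKBKB and IKBKG, which encode the alpha, beta and regulatory gamma subunits, had log2 ratios of 0.34, 0.65 and 0.23. CHUK rested on 69 and 37 counts, and its columns overlapped. MAP3K7, the kinase TAK1 that activates IKK, had 0.52. MAP3K14, the kinase NIK that drives processing of p100, had a log2 ratio of −1.12 (−1.68 to −0.56) on 47 and 69 counts. Leaving out 1 column at a time moved it between −1.45 and −0.87. Without the first or the second NO donor column, or without the second control column, it was not past the size rule. Total count scaling gave −0.52. TBK1, a kinase related to IKK that acts in interferon induction, was 3.01-fold higher (2.58 to 3.51), at 251 against 83.5, while its relative IKBKE had 0.23 with overlapping columns.

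Of 19 other measured inhibitors 1 was higher and 1 was lower, beside 14.5% and 20.2% of all measured genes, with a median log2 ratio of 0.31. PDLIM2, a ubiquitin ligase that removes p65 from the nucleus, was 6.43-fold lower (5.75 to 7.19), at 114, 102 and 103 in the NO donor columns and 675, 717 and 660.1 in the control columns. ZC3H12A, the ribonuclease that degrades IL6 and other inflammatory messengers, was 2.56-fold higher, at 83.1, 90.1 and 82.2 in the NO donor columns and 36.3, 27.9 and 35.7 in the control columns, and was chosen after its values were seen. TAX1BP1 and TNIP2, both adaptors that work with A20, had log2 ratios of 0.85 and 0.84. CYLD, the deubiquitinase that acts beside A20, had 0.07 (−0.10 to 0.24) and was also chosen after its values were seen. BCL3 and BIRC2 had no row under their symbols in the deposited comparison.

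**Figure D4:**
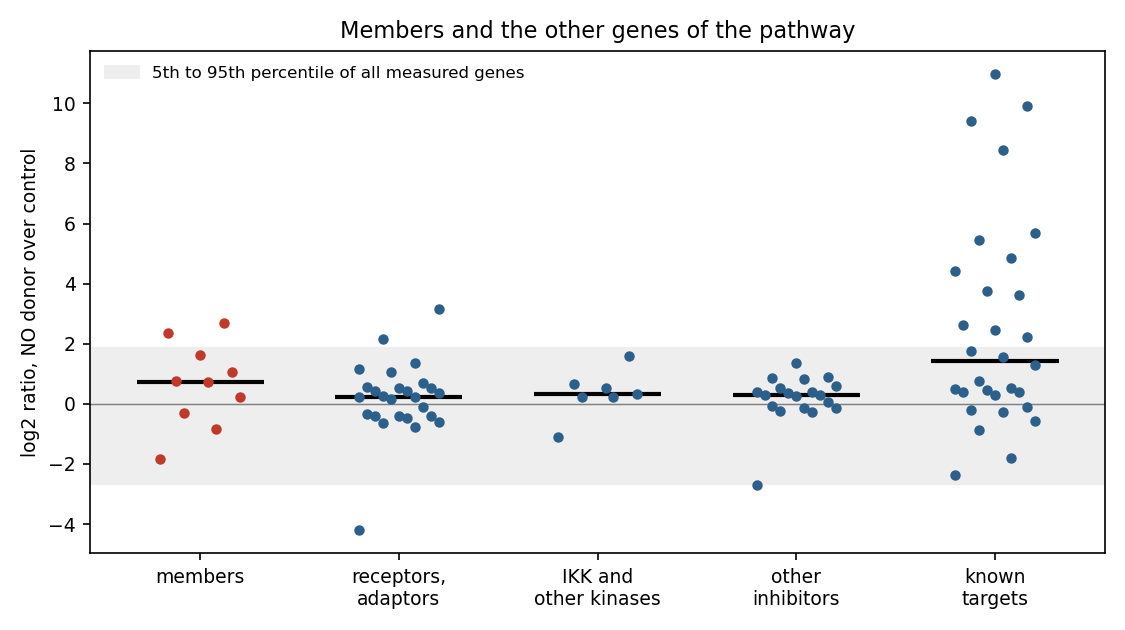
Log2 ratio of the NO donor over the control for the 10 members (red) and for the measured genes of 4 other lists of the pathway (blue), with the median of each as a black line; the grey band holds the 5th to the 95th percentile of all measured genes, −2.65 to 1.85. Genes with 0 counts in the control are drawn at a floor of 3 counts for that library. The known target genes reach the highest ratios and have the highest median, 1.42.

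Known target genes of NF-kB held the largest ratios of the lists. Of 30 measured genes 16 were higher and 2 were lower, beside 14.5% and 20.2% of all measured genes, with a median of 1.42. CSF2 and MMP9 had 0 control counts and were called at a floor of 3 counts. At a mean normalized count of at least 10, 14 targets were higher and 2 lower, beside 12.4% and 17.9% of measured genes at that level. Leaving out 1 column at a time moved the median between 1.05 and 1.52. The 4 with the largest ratios were CCL20, CXCL8, MMP3 and IL1A, with log2 ratios of 10.99, 9.92, 9.41 and 8.43; all but CXCL8 rested on 1 to 4 counts in the control. The counting intervals of CCL20 and MMP3, each with 1 count there, ran from 8.51 to 16.29 and from 6.93 to 14.72. The other targets named here were chosen after their values were seen. CXCL2, a neutrophil chemokine, was 43.7-fold higher (39.5 to 48.6), and PTGS2, the inducible cyclooxygenase, 21.3-fold (20.1 to 22.5). The NO donor columns of CXCL2 scattered 38.8 times and those of PTGS2 14.5 times as much as counting alone gives, so both intervals are too narrow. By the same measure CXCL8, CCL20, MMP3 and IL1A scattered 114, 38.7, 11.5 and 4.50 times as much. The intervals of CCL20 and MMP3 do not cover that scatter. The adhesion molecules for leukocytes did not share this direction. VCAM1 was 5.20-fold lower (4.56 to 5.94), at 74.9, 74.6 and 86.3 in the NO donor columns and 430.5, 426 and 375 in the control columns. ICAM1 had overlapping columns and a log2 ratio of −0.09 (−0.32 to 0.13), or 0.50 with total count scaling. CCL2, the monocyte chemokine, had −0.87 (−0.90 to −0.84), but its NO donor columns scattered 57.7 times as much as counting alone gives, and over the 9 pairings of columns the value ran from −1.08 to −0.70. CD83, a surface protein of activated antigen-presenting cells, was 3.52-fold lower on 31 and 74 counts. At total count scaling 20 targets were higher and 2 lower, as were 11 and 1 of the receptors and adaptors, 3 and 0 of the kinases, and 6 and 1 of the other inhibitors. At that scaling 33.2% of all measured genes were higher and 11.9% lower, where every log2 ratio is larger by 0.60.

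The cell type was checked by its markers. All 11 markers of valve interstitial cells had counts in both libraries, though POSTN had only 3 with the NO donor and 399 in the control. Of the 11, 10 were called lower with the NO donor, where 20.2% of the measured genes were. Their median log2 ratio was −2.85. The 11 markers had a summed level of 41538 to 43879 per NO donor column and 206033 to 210033 per control column. Leukocytes and endothelial cells also carry NF-kB genes. The 4 leukocyte markers measured, CD14, CD68, AIF1 and TYROBP, summed to 160 to 174 per NO donor column and 167 to 174 per control column. CD14 made up most of this, at 151 and 160.1. The other 3 had few counts and did not share a direction. NO donor and control counts were 24 and 4 for CD68, 35 and 1 for AIF1 and 4 and 19 for TYROBP. Thus 2 markers were called higher and 1 lower, beside 14.5% and 20.2% of the measured genes. The other 7 of the 11 leukocyte markers had no row under their symbols in the deposited comparison. Of 10 endothelial markers 3 were measured, and they summed to 256 to 306 per NO donor column and 685 to 734 per control column. Of these, 0 were higher and 2 lower, beside the same 14.5% and 20.2%. PECAM1 had a log2 ratio of −0.64 and ERG one of −2.37. No marker with a row was at 0 in both libraries. The members together summed to 2428 to 2519 per NO donor column and 1476 to 1657 per control column. The part of other cell types in these differences was not tested.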

How the data were processed

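Per the labels, interstitial cells of pig aortic valves were made into droplet single-cell libraries (10x Chromium). Sscrofa11.1, Cell Ranger, DESeq2 and Seurat 3.0 are listed, without their roles, per the submitters' processing notes. The authors' deposited table of NO donor against control holds normalized counts, a signal that each of 6 columns gives after division by its own size factor. Dividing every column by its smallest step gave whole numbers for 100% of values, to within 0.01, and these were used as counts. The log2 fold change, its standard error, the Wald score, the p-value and the adjusted p-value are the authors' deposited values, per the file headers. No source used here gives the gene annotation counted or the filters on cells and doublets.

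For each gene the counts of the 3 columns were summed and divided by the summed size factors. Ratios carry exact binomial (Clopper-Pearson) 95% intervals from scipy 1.17.1, which cover counting error only. For the lists, 0 counts in a library were replaced by 3. Genes called in the lists were also counted at a mean normalized count of at least 10. Scatter of columns is the chi-square of the 3 counts over its degrees of freedom. It averages 1 under counting error alone and, with 3 columns, varies widely around that. Since the labels give 1 library per group, no count model was fitted. The steps were tested on simulated data. Alternatives were total count scaling, TMM factors from edgeR 4.0.16, median-of-ratios factors from DESeq2 1.42.0, the authors' fold change, leaving out each column, and a size rule of 0.5.

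Named genes were the 10 members, the kinase list in full, and from each other list up to 4 genes with the largest absolute log2 ratio among those at or above the median mean normalized count of measured genes, 91.7. The members and lists were chosen with earlier results of these data known. Coordinates are 1-based gene spans of the RefSeq annotation of Sscrofa11.1, and sequences are from that assembly, read with pysam 0.24.0. A planned comparison of the protein sequences was not made, and 1 sequence result is not reported here.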

Additional observations from a re-analysis of the deposited data

How the results depend on the processing

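At the size rule of 0.5 in place of 1, 6 members were higher and 2 lower, beside 29.5% and 32% of the measured genes. The second lower gene was TNFAIP3. Total count scaling gave 6 higher and 1 lower, beside 33.2% and 11.9% of the measured genes. TMM scaling, median-of-ratios scaling, scaling to the median of the measured genes (chosen after seeing the data) and the authors' deposited fold changes gave 4 and 1, and so did leaving out any 1 of the 6 columns, where both counts ran from 4 to 4 and from 1 to 1. Requiring the whole counting interval past 1 left 3 higher, without NFKB2, and 1 lower. Among these settings, the share of all measured genes was computed only for the size rule of 0.5 and total count scaling. No called member changed sign under these settings. RELA ran from −0.46 to 0.86 over the left-out columns. Total count scaling moved 9 members beyond their counting interval. No paired analysis was possible because each group had 1 library.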
